A study of Drosophila melanogaster with 2 samples.

Results

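Gap genes and pair-rule genes divide the early Drosophila melanogaster embryo into segments. Gap genes, switched on by maternal gradients, are each expressed in a broad band of the blastoderm. Most pair-rule genes, though not opa, follow in stripes, which for some of them are set by gap proteins acting on separate enhancers. Both classes encode transcription factors, and many of them are used again later in the nervous system and in other tissues. The 10 genes described here are some of the members of these classes without a homeobox. Others, such as odd, slp1 and slp2, were read with the other segmentation genes. The 10 are the trunk gap genes hb, Kr, kni and gt, the kni paralog knrl, the terminal gap genes tll and hkb, and the pair-rule genes hry (hairy), run and opa. They were taken by symbol from 13945 protein-coding genes of the 6 main chromosome arms, with every peak summit in the gene body and 5 kb to each side. All 10 were found in the annotation.

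The peaks came from ChIP-seq, which sequences the DNA that an antibody pulls down together with a bound protein, on whole embryos aged 0 to 12 hours. The flies were a stable transgenic line carrying a fusion of CG7745 with GFP, the green fluorescent protein, at the C-terminal end; the description in the labels names an antibody to GFP, while their antibody field names CG7745. Both samples, biological replicates 2 and 3 (n = 2), belong to this 1 group and no second condition is labelled, so the comparisons are between lists and between these genes and all protein-coding genes (coordinates on dm6). The labels do not say which promoter drives the fusion, and whole embryos of this age range mix all cell types and many stages, so that binding in fewer cells and weaker binding per cell cannot be told apart.

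The lists held 30000 peaks on the pooled replicates, 29981 nuclear peaks in replicate 2, 30000 in replicate 3, and 1861 distinct intervals in the set kept by the irreproducible discovery rate (IDR), the strongest part of the pooled list. Peaks are ranked by the authors' signal, which has no stated scale and is compared only within a list; rank 1 is the strongest. The files give no read counts, so depth is unknown, and the exact (Clopper-Pearson) 95% intervals given here reflect only how many peaks or genes were counted.

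Reproducible binding of CG7745-GFP was found at 2 of the 10 genes, Kr and hry, and weaker summits were found at 7 more. For the pooled summits of those 7 genes, the deposited −log10 q value, lower for less certain peaks, ran from 0.46 to 3.29. It was 0.75 and 0.52 at the 2 gt summits, so a listed summit does not by itself show binding. Kr held 2 IDR summits and hry 1, which makes 3 in all; 5.39% of all protein-coding genes had 2 or more. Over all protein-coding genes, 20.4% had an IDR summit in the same kind of window, so 2 of 10 (20%, interval 2.52 to 55.6%) is near the background. Among the 7825 genes with windows as long as those of the 10 genes (11.6 to 33.5 kb), the share was 22.3%. At both genes a summit lay within 500 bp of a transcription start site (TSS), which 6.32% of all protein-coding genes had. Both rest on the weaker part of the IDR set: the IDR peaks above the median signal of that set held no summit in any of the 10 windows, and as many of the strongest peaks of replicate 3 alone as the IDR set holds included Kr but not hry.

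The pooled list held 61 summits in the windows of 9 of the 10 genes (75.2% of all protein-coding genes had at least 1, and 81.9% of those with windows as long), and 8 of the 10 had one within 500 bp of a TSS (all genes: 46.7%). The genes without a pooled summit at the TSS were knrl and tll. The pooled summits numbered 16 at opa, 9 at kni, 8 at knrl, 7 at hb, 6 each at Kr and hkb, 4 at hry, 3 at run, 2 at gt and none at tll. In each replicate's own list all 10 genes had at least 1 summit in the window, 59 in replicate 2 and 69 in replicate 3, against 77.4% and 76.2% of all protein-coding genes. At a TSS, within 500 bp, 8 of the 10 had a summit in replicate 2 (all but kni and gt; all genes: 44.5%) and 8 in replicate 3 (all but knrl and tll; all genes: 46.8%). With the pooled summits limited to those found within 100 bp in both replicates, 8 of 10 genes had one in the window (all genes: 57.3%) and 5 had one at the TSS (Kr, hkb, hry, run and opa; all genes: 24.0%).

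**Figure D1:**
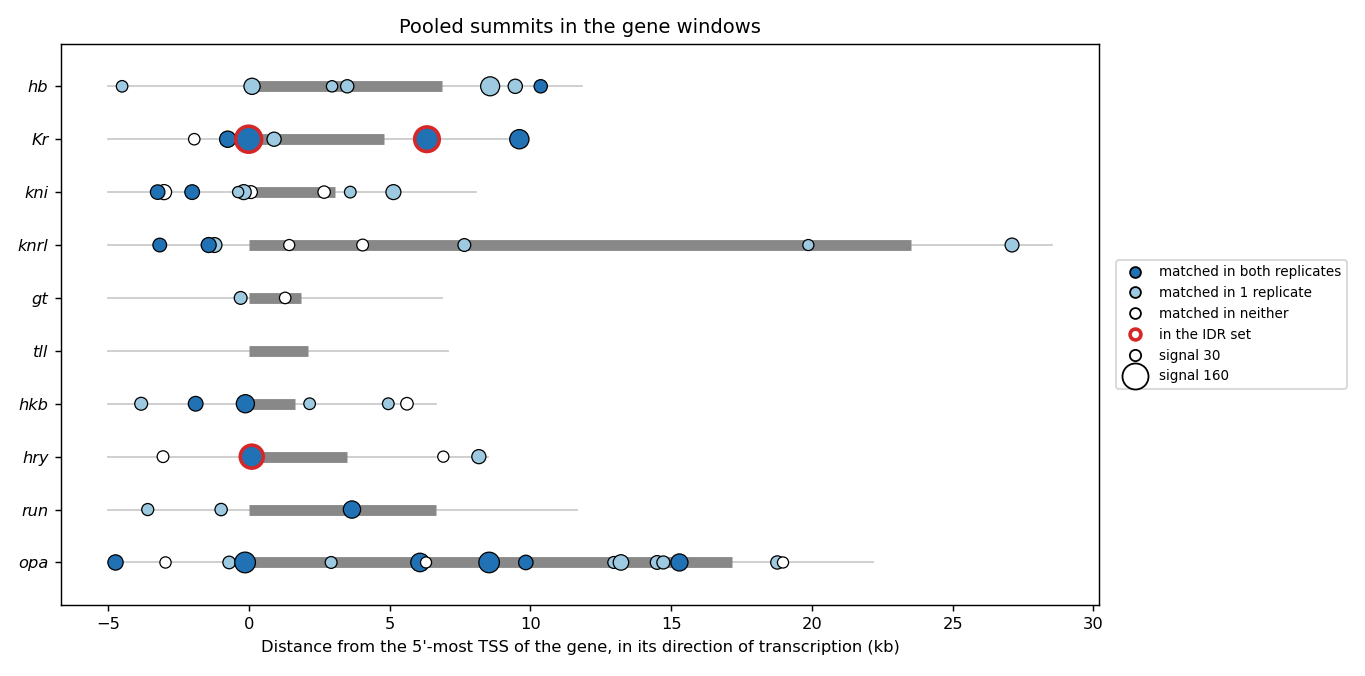
Pooled summits (circles) along each gene, placed by distance in kb from the gene's 5′-most TSS in its direction of transcription; thick bars are gene bodies, thin lines the 5 kb to each side, circle area is proportional to the authors' signal, and the fill shows in how many replicates a summit lay within 100 bp. The 3 IDR summits, outlined in red, lie at the Kr start, 6324 bp downstream of it and at the hry start, while the tll line is empty.

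**Figure D2:**
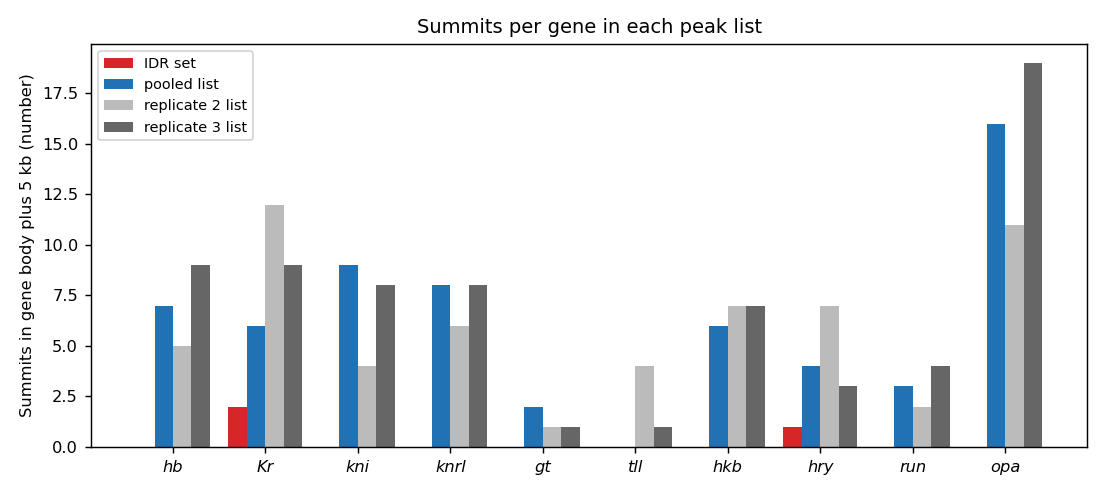
Number of summits in the gene body plus 5 kb for each of the 10 genes (x axis) in the IDR set, the pooled list and the lists of replicates 2 and 3 (bars). The bars for opa reach 16 in the pooled list, 11 in replicate 2 and 19 in replicate 3, and tll has 4 in replicate 2, 1 in replicate 3 and none in the pooled list.

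The sequences around some of these summits are shown because they carry the strongest pooled summits of opa and hkb, the strongest of hb, and letters known as sites of the factors that act on this network. Each reaches 50 bases to either side of the summit, read from the RefSeq copy of Release 6 (dm6) on the plus strand, 5′ to 3′. Capitals mark matches, on either strand, to the motifs searched: CAGGTA (Zelda), GAGAGAG (bound by the GAGA factor), TATCGAT (Dref), TAATCC (Bicoid), TTTTTTT (Hunchback), AAGGGTT (Krüppel), CACGTG (an E-box, bound by bHLH proteins), CACGCG (Hairy), CACACAC (dinucleotide repeat) and AATTAA (a word found in these data, described with the other motifs). The repeat and Hairy words overlap in the hkb window. The hb, kni, knrl and hkb genes run on the minus strand. The Kr sites are described without sequence, and windows that touch an untranslated region, such as those at the hry and run starts, are not shown.
opa, start (chr3R:4852625-4852725): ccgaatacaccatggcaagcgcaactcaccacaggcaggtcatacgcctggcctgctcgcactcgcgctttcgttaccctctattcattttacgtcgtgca
opa, intron (chr3R:4861295-4861395): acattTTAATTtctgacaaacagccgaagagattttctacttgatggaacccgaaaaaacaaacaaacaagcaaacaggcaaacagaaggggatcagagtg
opa, intron (chr3R:4865979-4866079): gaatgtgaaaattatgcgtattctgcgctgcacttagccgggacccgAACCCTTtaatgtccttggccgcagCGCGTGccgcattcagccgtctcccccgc
hkb, start (chr3R:4346724-4346824): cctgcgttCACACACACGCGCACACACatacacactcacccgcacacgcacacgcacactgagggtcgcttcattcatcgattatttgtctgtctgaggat
hb, past the 3′ end (chr3R:8689204-8689304): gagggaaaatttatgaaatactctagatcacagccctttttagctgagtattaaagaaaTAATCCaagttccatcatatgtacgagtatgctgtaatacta
kni, start (chr3L:20695513-20695613): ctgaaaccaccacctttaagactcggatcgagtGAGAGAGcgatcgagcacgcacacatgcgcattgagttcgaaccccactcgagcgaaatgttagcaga
kni, upstream (chr3L:20698345-20698445): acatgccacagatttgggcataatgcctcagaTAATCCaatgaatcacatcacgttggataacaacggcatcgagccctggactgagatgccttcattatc
knrl, upstream (chr3L:20622040-20622140): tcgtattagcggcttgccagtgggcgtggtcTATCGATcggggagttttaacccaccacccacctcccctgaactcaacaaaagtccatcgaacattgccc

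Kr (FBgn0001325, 2R, 25226611 to 25231394) encodes the zinc finger repressor Krüppel of the central gap domain. Its start held the strongest pooled summit of the 10 genes, at -12 bp from the TSS, with a signal of 159 and rank 1049 in the pooled list, inside the IDR set. In the replicates the same site, within 2 bp, had a signal of 62.9 (rank 1320) in replicate 2 and 88.9 (rank 1444) in replicate 3. The second IDR summit lay 6324 bp downstream of the TSS and 1541 bp past the 3′ end of the gene, with a pooled signal of 142 (rank 1349). This site ranked 3513 in replicate 2 (signal 41.8) and 1278 in replicate 3 (signal 93.7), so replicate 2 placed it below the start and replicate 3 placed it above. A weaker summit 4823 bp past the 3′ end ranked 3870 in the pooled list (signal 87.4), and ranked 5759 in replicate 2 and 4734 in replicate 3.

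The remaining Kr summits were at -755 bp (signal 62.7, rank 7712, found in both replicates), at 892 bp in the coding sequence (signal 47.3, replicate 3 only) and at -1944 bp (signal 30.7, in neither). Of its 6 pooled summits, 4 were found in both replicates. The whole of Kr lies inside CG9380, a gene on the opposite strand that runs from 25183628 to 25255318, so the 5 Kr summits outside the Kr body and exons are annotated as intronic in CG9380. For each of the 6, the nearest protein-coding TSS was that of Kr.

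hry (FBgn0001168, 3L, 8675759 to 8679253) encodes the bHLH repressor Hairy, a primary pair-rule protein. Its IDR summit lay between the 2 annotated starts, 99 bp downstream of the first and 97 bp upstream of the second, in the 5′ untranslated region of the longer transcript. The pooled signal was 124 and the rank 1801, just inside the IDR set, which ends at a signal of 121.7. Replicate 2 had this site at rank 1803 (signal 55.2) and replicate 3 at rank 2259 (signal 72.3), with the summits 40 and 7 bp away from the pooled one. The other 3 hry summits were weak, at ranks 13607, 25017 and 28913, and none was found in both replicates. The strongest of them, 4673 bp past the 3′ end, had a signal of 26.9 in replicate 2 and no match in replicate 3.

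opa (FBgn0003002, 3R, 4852813 to 4869979) encodes the Zic-type zinc finger protein Odd-paired, which acts late in the pair-rule stage. It had no IDR summit but the most pooled summits, 16 in a window of 27.2 kb, a number that 3.44% of all protein-coding genes reached. Per 10 kb this was 5.89 summits, a density that 14.7% of genes reached. Its strongest summit lay 138 bp upstream of the TSS (signal 100.7, rank 2851), outside the IDR set, and ranked 2986 in replicate 2 (signal 44.7) and 4082 in replicate 3 (signal 55.8). A summit 8532 bp into the gene was nearly as strong (signal 99.7, rank 2918), with signals of 40.4 in replicate 2 and 52 in replicate 3. A further intronic summit at 6077 bp had rank 4567 (signal 80.8), and replicate 3 placed it higher (rank 4268) than replicate 2 (rank 11556). In all, 6 of the 16 opa summits were found in both replicates, 7 in 1 and 3 in neither. The pooled summits from 12961 bp onward lay nearest the TSS of the neighbour laf, so they cannot be assigned to opa by distance.

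run (FBgn0003300, X, 20690670 to 20697321) encodes the Runx protein Runt, a primary pair-rule factor. Its strongest summit lay 110 bp upstream of the inner of its 2 starts, at 20694439, and within the 5′ untranslated region of the longer transcript (signal 70.2, rank 6160). It was found in both replicates, at rank 12919 in replicate 2 (signal 23.2) and rank 5157 in replicate 3 (signal 50). At the outer start only replicate 3 listed a summit, at -81 bp with a signal of 20.8 and rank 26331. The other pooled summits, at -989 and -3597 bp, ranked 21310 and 23204 and were matched in replicate 3 only.

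hb (FBgn0001180, 3R, 8690980 to 8697822) encodes the zinc finger protein Hunchback, which has a maternal and a zygotic supply. The 2 annotated starts are at 8694600 and 8697822. At the outer start the pooled summit was 109 bp downstream (signal 61.9, rank 7925), with replicate 2 at 111 bp (signal 27, rank 9456) and replicate 3 at -36 bp (signal 38.5, rank 9008), too far apart to match within 100 bp. At the inner start pooled summits lay at 269 and -270 bp (signals 41.4 and 30.3), each matched in replicate 3 only, where the signals were 31.2 and 36.

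The strongest hb summit was not at a start but 1726 bp past the 3′ end (signal 85, rank 4095). Replicate 3 had it at rank 4178 (signal 55.3), and the nearest replicate 2 summit, at 8689096 with a signal of 34.1 (rank 5640), lay outside the 100 bp limit. The printed window there holds a TAATCC. The nearest protein-coding TSS is that of CG44227, at 4078 bp, while the nearest hb start is 5346 bp away, so the summit cannot be assigned to hb by distance. Of 7 hb summits, 1 was found in both replicates and 6 in 1.

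kni (FBgn0001320, 3L, 20692330 to 20695378) and knrl (FBgn0001323, 3L, 20597141 to 20620659) are neighbouring paralogs that encode nuclear receptor-type DNA-binding proteins, of which Knirps sets the posterior gap domain. kni had 9 pooled summits, 6.9 per 10 kb, a density that 8.72% of all genes reached and the highest of the 10. None was strong: the 9 signals ran from 29.6 to 53.4 and the best rank was 10589. The summit of that rank, at -3017 bp from the outer start, was found in neither replicate. Its window is the one printed as upstream, with a TAATCC. Summits at -185 and -385 bp from the outer kni start were found in replicate 3 (signals 40.9 and 28.5) and not in replicate 2. Those at -2018 and -3244 bp were found in both, with signals of 21.8 and 18.2 in replicate 2 and 26.8 and 45.6 in replicate 3.

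knrl, the longest of the 10 genes, had 8 pooled summits over 33.5 kb, 2.39 per 10 kb. Its strongest, 1431 bp upstream of the TSS (signal 53.1, rank 10725), was found in replicate 2 (signal 27.1) and replicate 3 (signal 28.7), and a neighbour at -1225 bp in replicate 2 only. The printed window at -1431 bp holds the only TATCGAT among the 61 summit windows (1.64%, against 2.2% of all pooled windows). Between the 2 genes, and outside both windows, 1 IDR summit lay in intergenic DNA at 20667582 (signal 128, rank 1675), 24.7 kb from the kni body and 46.9 kb upstream of the knrl TSS. It was found in replicate 2 (signal 43, rank 3286) and replicate 3 (signal 74.5, rank 2119).

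Of the terminal gap genes, hkb had a summit at its start in every list but the IDR set, and tll had none in the pooled list. hkb (FBgn0261434, 3R, 4345015 to 4346646) encodes the Sp-like zinc finger protein Huckebein, and had 6 pooled summits. The strongest lay 128 bp upstream of its start (signal 77.7, rank 4969) in a stretch of CA repeats, as printed. It ranked 3764 in replicate 3 (signal 57.9) and 15186 in replicate 2 (signal 21.3). Replicate 2 also listed a stronger summit at this start, at 85 bp (signal 28.5, rank 8433). A summit at -1894 bp was also found in both replicates (signals 22.9 in replicate 2 and 26.9 in replicate 3). The pooled summits at 4950 and 5613 bp lay nearest the TSS of CG1103.

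tll (FBgn0003720, 3R, 30852315 to 30854400) encodes the orphan nuclear receptor Tailless, and had no summit in the pooled list. Replicate 2 listed 4, at -4559, -58, 4313 and 5828 bp, with signals of 15.8, 14.4, 15.6 and 16.6 and ranks between 22936 and 28150. Replicate 3 listed 1, at 1464 bp (signal 24.8, rank 20172). No site was shared. gt (FBgn0001150, X, 2427113 to 2428967), which encodes the bZIP repressor Giant, had 2 weak pooled summits, at -295 bp (signal 38.6, rank 18918, found in replicate 3 at 28.2) and at 1287 bp in the coding sequence (signal 31.1, in neither replicate).

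The nearest IDR summit was 25.2 kb from a start of hb, 26.9 kb from hkb, 27 kb from kni, 33.3 kb from gt, 34.8 kb from tll, 35.6 kb from run and 39.4 kb from opa. Each of these lay nearest the TSS of another gene, apart from the one at 27 kb from kni. With 10 kb to each side in place of 5, no further IDR summit entered any of the 10 windows.

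The replicates shared the stronger of these summits and few of the weaker. Of the 61 pooled summits, 19 (31.1%, interval 19.9 to 44.3%) had a summit within 100 bp in both replicates, against 33% of the whole pooled list. Another 29 (47.5%) were found in 1 replicate and 13 (21.3%) in neither, against 53% and 14% of the whole list. With a limit of 250 bp, 42.6% were found in both, against 52% of the whole list. Neighbouring summits are not independent, since 12 of the 61 had another within 250 bp.

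By rank, all 3 summits in the IDR set were found in both replicates, 5 of 6 at ranks 1875 to 5000, 3 of 5 at ranks 5001 to 10000, 8 of 24 at ranks 10001 to 20000, and none of 23 at ranks 20001 to 30000. The same shares over the whole list were 94.1%, 77.7%, 55.4%, 24.6% and 4.7%. Agreement at the top ranks is partly built in, since IDR selects for replicate agreement and the pooled ranks draw on both replicates. The median signal of the 61 summits was 41.8, against 44.3 over the pooled list. Over the 19 summits found in both, the signals of the 2 replicates had a Spearman's rho of 0.63, a description across summits that share 8 genes and 1 control. Replicate 3 matched 42 of the 61 (68.9%) and replicate 2 matched 25 (41%), against 65% and 54% of the whole list.

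**Figure D3:**
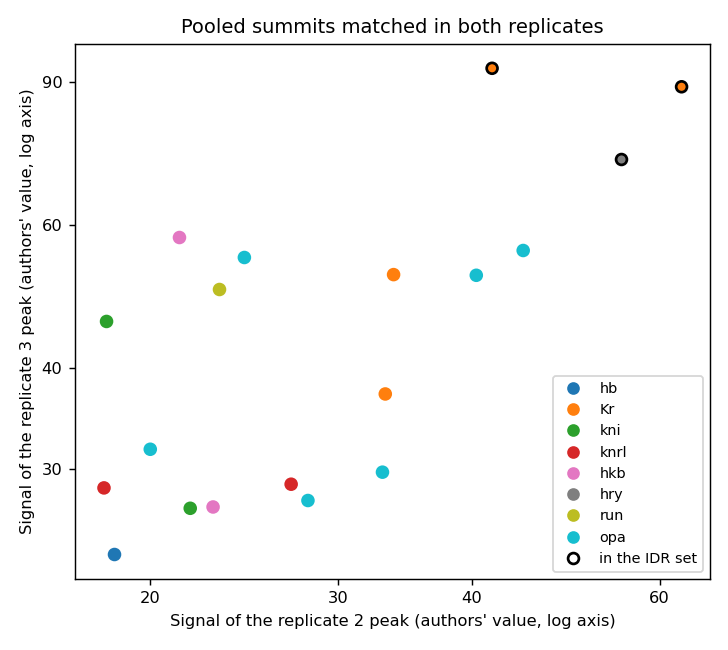
Authors' signal of the matched peak in replicate 2 (x axis, log scale) and replicate 3 (y axis, log scale) for the 19 pooled summits found within 100 bp in both, coloured by gene; black outlines mark the IDR set. The 2 Kr IDR summits and the hry summit hold the highest replicate 3 values (93.7, 88.9 and 72.3).

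**Figure D4:**
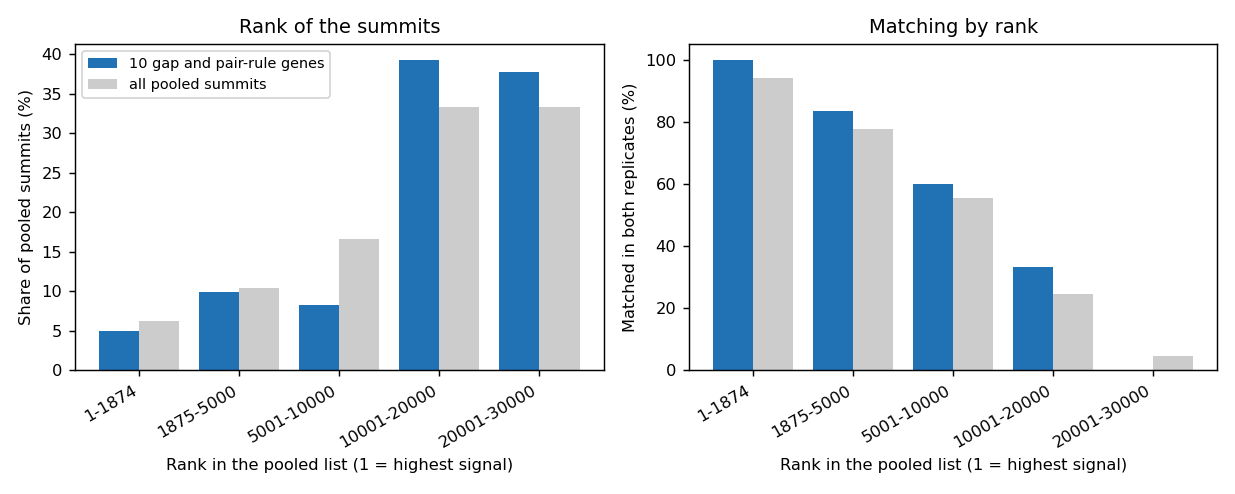
Left, share of pooled summits in each rank class for the 10 genes (blue) and for the whole pooled list (grey), in percent; right, percent of each class found within 100 bp in both replicates. None of the 23 summits of the 10 genes at ranks 20001 to 30000 was found in both, against 4.7% of the whole list.

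The summits of these genes lay more in intergenic DNA than the pooled list as a whole. Each summit was given 1 class, promoter (no more than 500 bp from a protein-coding TSS) before untranslated region, coding exon, intron and intergenic. Intergenic summits numbered 27 of 61 (44.3%, interval 31.5 to 57.6%), against 19.6% of all pooled summits. Introns held 18 (29.5%, against 40%), promoters 12 (19.7%, against 26.3%) and coding exons 2 (3.28%, against 6.93%), those in Kr and gt. The windows of 8 of the 10 genes touch no other protein-coding gene, and how far this sets the intergenic share was not tested. Per 10 kb, the 5 kb upstream held 4.6 summits (23 in all), gene bodies 3.24 (23) and the 5 kb downstream 3 (15), against 3.3, 2.31 and 2.85 over all protein-coding genes.

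The motifs searched were in few of the summit windows, as in the pooled list as a whole. None of the 3 IDR windows held any of the 9 motifs listed before AATTAA, which each occur in 0.961 to 9.66% of all IDR windows, so that little can be read from 3 windows. Over the 61 pooled windows, TAATCC was in 3 (4.92%, against 3% of all pooled windows), at hb and kni; CAGGTA was in 2 (3.28%, against 2.43%), at kni and opa; and GAGAGAG was in 2 (3.28%, against 2.53%), at kni and opa. CACGCG was in 4 (6.56%, interval 1.82 to 15.9%, against 2.53%), at hkb, kni and opa. TTTTTTT was in 2 (3.28%, against 8.79%), at hb and run, but with 100 bp to each side it was in 8 at 6 genes (13.1%, against 17.2%). AAGGGTT was in 1 (1.64%, against 1.05%), at opa. CACACAC was in 2 (3.28%, against 5.09%), at hkb and opa. CACGTG was in none of the 61 (interval up to 5.87%), against 1.38% of all pooled windows.

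Among all 6-letter words, AATTAA had the largest excess in percentage points in IDR windows over windows 500 bp away (31.9% against 15.2%). It was therefore added after the data were seen. It was in none of the 3 IDR windows of Kr and hry (interval up to 70.8%). In the 61 windows of the 10 genes it was in 6 (9.84%, interval 3.7 to 20.2%), against 18.2% of all pooled windows. In windows 500 bp to each side of the same 61 summits it was in 18%, against 15% beside all pooled summits. The median GC content was 42.6% in both the 61 windows and the whole list.

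Other genes of the segmentation cascade, and a group of neuroblast temporal genes, were read the same way. Of 41 such genes in 5 groups, 20 (48.8%) had an IDR summit in the gene body plus 5 kb, against 20.4% of all protein-coding genes, in windows with a median of 18.2 kb, while the windows of the 10 genes had a median of 14.1 kb and those of all protein-coding genes 12.2 kb. Within 500 bp of a TSS, 8 of the 41 (19.5%) had an IDR summit, beside 2 of the 10 genes (20%) and 6.32% of all protein-coding genes. The differences from the 10 genes were not tested. Of the maternal group, to which the list used here also assigns D, 7 of 13 genes had one in the window (median 14.4 kb) and 2 at a TSS. The highest window signals in this group were 317 at cic, a repressor under Torso signalling, 248 at bcd, 172 at D and 158 at pum. The bcd summit lay nearest the TSS of the neighbour Ama, and summits of other genes in this group also lay nearest a neighbour's TSS. To the other pair-rule group the list used here also assigns Ten-m. Of the 8 genes in that group, 5 had an IDR summit in the window (median 12.4 kb) and 1 at a TSS. Their highest window signals were 299 at slp2, 236 at Ten-m, 210 at slp1 and 154 at odd, while eve, ftz and prd had no IDR summit. The strongest pooled summits of those 3 had signals of 34.7, 56.6 and 63.9. The windows of pum (181 kb) and Ten-m (125 kb) were far longer than the medians of their groups.

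Of the head gap genes 2 of 6 had an IDR summit in the window (median 21.95 kb), and 1 at a TSS. Those in the window were at cnc (418) and kn (297, nearest the TSS of Spred). Of the segment polarity genes 3 of 9 had one in the window (median 21.9 kb), and each of the 3 had one at a TSS. The highest window signals were 194 at nkd (2785 bp from its TSS), 186 at the Hedgehog receptor gene ptc (-21 bp) and 168 at ci (-2174 bp). At nkd and ci the IDR summit at a TSS was a different one. The windows of en, wg and hh held no IDR summit. Of the neuroblast temporal genes, whose median window of 50.5 kb was the longest of the groups, 3 of 5 had an IDR summit in the window. Of the 5, 1 had one at a TSS. Those in the window were at grh (321), nub (237) and svp (206, nearest the TSS of Sfp87B), and cas had none.

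**Figure D5:**
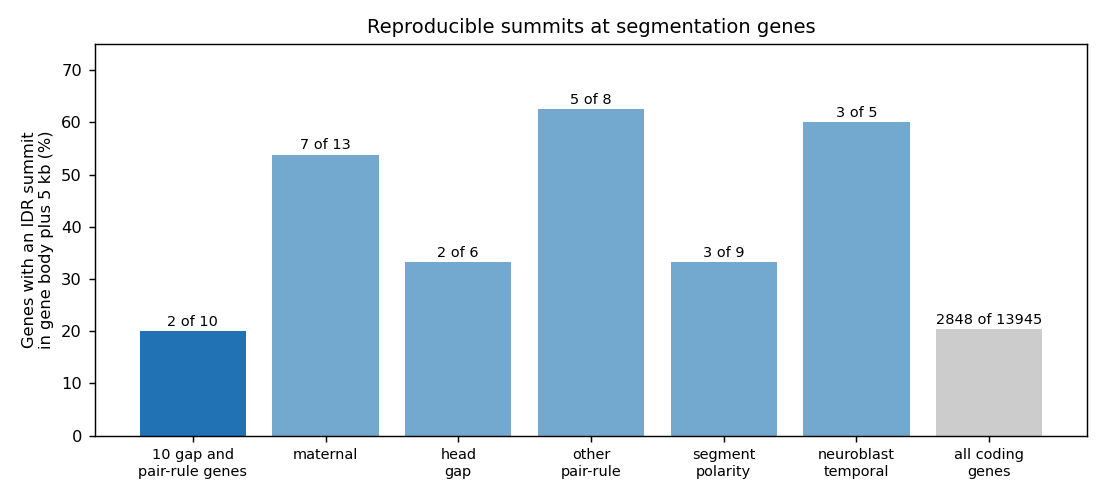
Percent of genes with an IDR summit in the gene body plus 5 kb (y axis) for the 10 gap and pair-rule genes, for 5 other groups of segmentation and neuroblast temporal genes and for all protein-coding genes, with the numbers above the bars. The 10 genes stand at 20%, the other groups between 33.3 and 62.5%, and all protein-coding genes at 20.4%, in windows whose medians differ between the groups (12.4 to 50.5 kb); at a TSS, 2 of the 10 genes and 8 of the 41 others (19.5%) had an IDR summit.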

How the data were processed

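The authors' deposited peak lists were the starting point. Per the file lists in the labels, each replicate's alignments and both pooled were searched for peaks against 1 control alignment (dm6), and an IDR set was made from those 3 lists. The peak caller, its version and the threshold on IDR were not given in the sources used here. Each peak's deposited signal is the caller's own value, and the deposited −log10 q value reached 3.56 at all 3 IDR summits of these genes, so peaks were ranked by signal. Because both replicates share 1 control, deviations in it enter both lists alike. Mitochondrial peaks were left out (19 in replicate 2), and so were the control's own data.

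Groups and replicate numbers come from the labels. The replicates come from separate biosamples of 1 line. Genes and starts came from Ensembl release 115 and bases from the RefSeq Release 6 genome. A replicate summit within 100 bp counted as a match. Shares are descriptions with exact intervals and no test. Members and lists were chosen with earlier results of these data known. The rule for named genes takes the 10 genes, up to 4 genes of each other group by IDR signal, and neighbours whose start is nearest an IDR summit. At hb, opa and hkb, neighbours whose start is nearest a pooled summit were named as well. Genes named as having none were chosen after their values were seen. The symbol nos was matched to nanos by its gene identifier. Alternatives were other flanks, promoter windows, matching distances, summit windows, the stronger part of the IDR set and each replicate alone. Code was tested on simulated peaks. Tools were matplotlib 3.10.9, SciPy 1.17.1, pandas 2.3.3, NumPy 2.4.6 and Python 3.11.15.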

Additional observations from a re-analysis of the deposited data

How the results depend on the processing

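Without the 5 kb flanks, 1 gene (hry) held an IDR summit in its body, and 1 IDR summit lay in the 10 gene bodies. With the IDR peaks above the median signal alone, 0 of the 10 genes had a summit in the window and 0 at a start. With as many of the strongest peaks of a single replicate in place of the IDR set, between 1 gene (without replicate 2, Kr) and 2 genes (without replicate 3, Kr and hry) had a summit in the window, and likewise between 1 and 2 had one at a start, and either replicate alone gave 2 summits. Flanks of 2 and 10 kb and promoter windows of 250 and 1000 bp left 2 genes and 3 IDR summits. With a matching limit of 50 bp, 16.4% of the pooled summits were found in both replicates, against 20.9% of the whole list. Over the 61 pooled windows, which were added after the data were seen, 100 bp to each side moved TTTTTTT to 13.1%, against 17.2% of all pooled windows, and CACACAC to 11.5%, against 9.97%. In windows of 30 or 100 bp to each side, the shares of IDR windows with a motif stayed within their intervals, which are wide for 3 summits. No paired analysis was possible because both replicates belong to 1 group. The unknown depth limits what a missing peak can show.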
